A study of Homo sapiens with 8 samples.

Results

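Transcript levels of the cytosolic ribosomal protein genes were examined in LP-1 cells, a human multiple myeloma line. The members were taken by gene symbol: every RPL or RPS gene with a number, plus RPSA, RPLP0, RPLP1 and RPLP2, without the RPS6K kinases. This gave 84 of the 18564 genes in the table, of which 52 encode proteins of the large subunit and 32 encode proteins of the small subunit. Among them, 7 are paralogs of another member (RPL3L, RPL7L1, RPL10L, RPL22L1, RPL26L1, RPL39L and RPS27L), and the remaining 77 are called core members here.

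The cells were either WT or BR, a bortezomib-resistant derivative kept in bortezomib for 2 months, whose IC50 for the drug was over 5-fold higher. Bortezomib is an inhibitor of the proteasome. Each line received vehicle (DMSO) or SI-2 at 25 nM for 24 h, a compound that inhibits the transcriptional coactivator SRC-3. The groups follow the titles: the libraries titled DMSO carry the treatment tag untreated in WT and a tag that names the bortezomib culture alone in BR. Each of these 4 conditions had 2 libraries, which makes 8. The labels do not say whether the libraries of a condition came from separate cultures, or whether vehicle and SI-2 libraries of a line shared a culture. The study describes its BR expression data, with vehicle or SI-2, as independent experiments and does not say this of WT, so for WT the p-values may measure technical spread. BR is 1 resistant derivative of 1 line, so resistance and any other difference between these cultures cannot be told apart.

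A ribosome consists of a large subunit, which forms peptide bonds, and a small subunit, which reads the mRNA. Each core ribosomal protein is normally present once per ribosome, apart from the stalk proteins RPLP1 and RPLP2, which are present in pairs. The mRNAs of these proteins carry a 5′ terminal oligopyrimidine (TOP) motif, a C at the cap followed by a run of C and T bases. Their translation is controlled together through this motif, downstream of the kinase mTORC1. Plasma cells and myeloma cells secrete large amounts of immunoglobulin and have a high demand for ribosomes.

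The identity of the cells was checked on marker genes. Of 12 plasma cell and LP-1 markers, 11 were above 5 FPKM (fragments per kilobase of transcript, scaled to library size) in every library, and SLAMF7 was below 1 in each. Of 16 markers of other cell types found in the table, 9 were below 1 FPKM in all libraries and none was at 0 in all. Their summed level was 9.93 to 15.7 FPKM in the WT libraries and 25.1 to 47.9 FPKM in the BR libraries. Of this, PECAM1 made up 5.76 to 10.96 FPKM in WT and 20.77 to 22.9 FPKM in BR. The library of BR cells with SI-2, replicate 2, stood apart. There the fibroblast markers COL1A1, COL1A2 and DCN summed to 15.1 FPKM, against at most 0.1 elsewhere. Some markers of other cell types were also highest there. Among these, GNLY was at 2.64 FPKM (at most 0.34 elsewhere), EPCAM at 0.84 (at most 0.03) and NKG7 at 0.43 (at most 0.23). PECAM1, LYZ, CD8A, CD14, HBB and HBA1 were not highest in this library. The comparison of the lines, which this library enters, is given below with and without it for the members, their subunits, the start motif and the companion lists, and the part of these markers in the results was not tested.

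To show the motif shared by most members, the 30 bases around the annotated start (10 before it and 20 from it on) are printed for 3 sets: the 6 members lowest in BR against WT cells, the 3 with the highest level, and RPS27A, RPL22 and the 4 tested paralogs with an entry. Sequences and coordinates are from the RefSeq promoter table of build GRCh38.p14, 5′ to 3′ on the transcribed strand. Capitals mark the unbroken run of C and T bases that begins at the annotated start.
RPL7A (chr9:133348208-133348237, plus strand): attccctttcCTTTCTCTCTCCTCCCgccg
RPL12 (chr9:127451387-127451416, minus strand): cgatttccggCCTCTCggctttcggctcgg
RPL17 (chr18:49492446-49492475, minus strand): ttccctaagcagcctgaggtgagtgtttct
RPL29 (chr3:51995876-51995905, minus strand): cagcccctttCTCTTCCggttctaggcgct
RPL35 (chr9:124861938-124861967, minus strand): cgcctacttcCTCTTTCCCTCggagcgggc
RPL27 (chr17:42998409-42998438, plus strand): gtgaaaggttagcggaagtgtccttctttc
RPS27 (chr1:153990752-153990781, plus strand): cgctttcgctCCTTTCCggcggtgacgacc
RPLP1 (chr15:69452808-69452837, plus strand): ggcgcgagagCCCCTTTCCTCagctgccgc
RPS18 (chr6:33272065-33272094, plus strand): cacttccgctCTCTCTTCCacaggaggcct
RPS27A (chr2:55232678-55232707, plus strand): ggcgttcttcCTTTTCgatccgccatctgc
RPL22 (chr1:6199576-6199605, minus strand): cgctcacctcCCTTTCTaactccgctgccg
RPL22L1 (chr3:170870176-170870205, minus strand): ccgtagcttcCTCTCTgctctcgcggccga
RPL7L1 (chr6:42879606-42879635, plus strand): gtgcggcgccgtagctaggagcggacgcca
RPL26L1 (chr5:172958719-172958748, plus strand): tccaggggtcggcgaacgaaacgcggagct
RPS27L (chr15:63157458-63157487, minus strand): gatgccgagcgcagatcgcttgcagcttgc

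RPL17, RPL27, RPL7L1, RPL26L1 and RPS27L had no run of pyrimidines at the annotated start. The table held 67 of the 84 members, of which 11 had more than 1 start, and a gene was counted as having the motif if any of its starts did; for RPS27A, which has 3 starts, a start with the motif is printed. A C at the start followed by 4 bases that were each C or T, read on the transcribed strand only, was found in 47 members (70.2%) and in 5.14% of all 27305 genes with an entry. A second search asked for at least 8 unbroken C and T bases spanning the start, which could itself be C or T. It found 46 members (68.7%) and 5.94% of all genes. The 2 searches overlap, since both read the bases at the start. A match describes letters at an annotated start and does not show where transcription began in these cells.

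Ribosomal protein mRNAs were among the most abundant in these cells. Of the 100 genes with the highest mean FPKM over the 8 libraries, 60 were members. The median of the mean levels of the 77 core members was 1004 FPKM, against 8.93 FPKM for all 13520 genes tested. The median was 901 FPKM for core genes of the large subunit and 1189 FPKM for those of the small subunit. The core mRNAs ranged from 144 to 4043 FPKM, with 61 between 500 and 2000, 4 above and 12 below.

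The highest level was that of RPS27, a zinc-finger protein of the small subunit, at 4043 ± 338 FPKM (mean ± SD, n = 8 libraries). RPLP1, one of the acidic stalk proteins that recruit translation factors, followed at 3463 ± 207 FPKM. The ranges of both genes over the 8 libraries overlapped, but RPS27 was the higher gene in every library. RPS18 (2178 ± 176) and RPL7 (2139.9 ± 162) came next and differed by less than their spread. RPL4, RPL30, RPLP0, RPL9 and RPL8 followed, between 1614 and 1955 FPKM. RPLP0, which anchors the stalk, stood at 1683 ± 135 FPKM and RPLP2, its other acidic partner, at 1302 ± 93.4 FPKM. Along the order of the 77 core members, the gap between neighbours exceeded the larger of their SDs in 10 of 76 pairs. These SDs are over all libraries and include the difference between the lines. They do not show whether neighbours differed within each library.

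RPL10, which joins the large subunit late in its assembly, was at 1326 ± 174 FPKM. RPL11 and RPL5, which bind the 5S rRNA and, outside the ribosome, the p53 regulator MDM2, were at 1109 ± 72.2 and 622 ± 70.2 FPKM. RPS6, the substrate of the S6 kinases, was at 1299 ± 84.7 FPKM. RPS14 and RPS19, whose loss underlies the anaemias of the 5q- syndrome and of Diamond-Blackfan, were at 1172 ± 79.8 and 1263 ± 68.2 FPKM. RPS27A, made as a fusion with ubiquitin, was at 1463 ± 82.02 FPKM, and RPSA, which is also known as a laminin receptor precursor, at 786 ± 55.9 FPKM.

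The core members at the low end were RPS26 (144 ± 12.6 FPKM), RPL27A (164 ± 8.29) and RPS23 (189.9 ± 15.3). Above them stood RPL37 at 222 ± 26.0 FPKM, RPL22 at 269.7 ± 13.1 FPKM, RPL36A at 272 ± 25.0 FPKM and RPL13 at 284 ± 29.4 FPKM. The length by which the authors' values were scaled moved with this order. An effective length over 1000 bases, computed from the deposited counts and FPKM, was found for 8 of the 12 core members below 500 FPKM and for 9 of the other 65. It was 4922 bases for RPL27A, 4543 for RPL13 and 3332 for RPS23, and their mean counts of 14683, 23481 and 11531 reads lay within the range of the other core members. The part of the transcript model in this order was not tested.

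**Figure D1:**
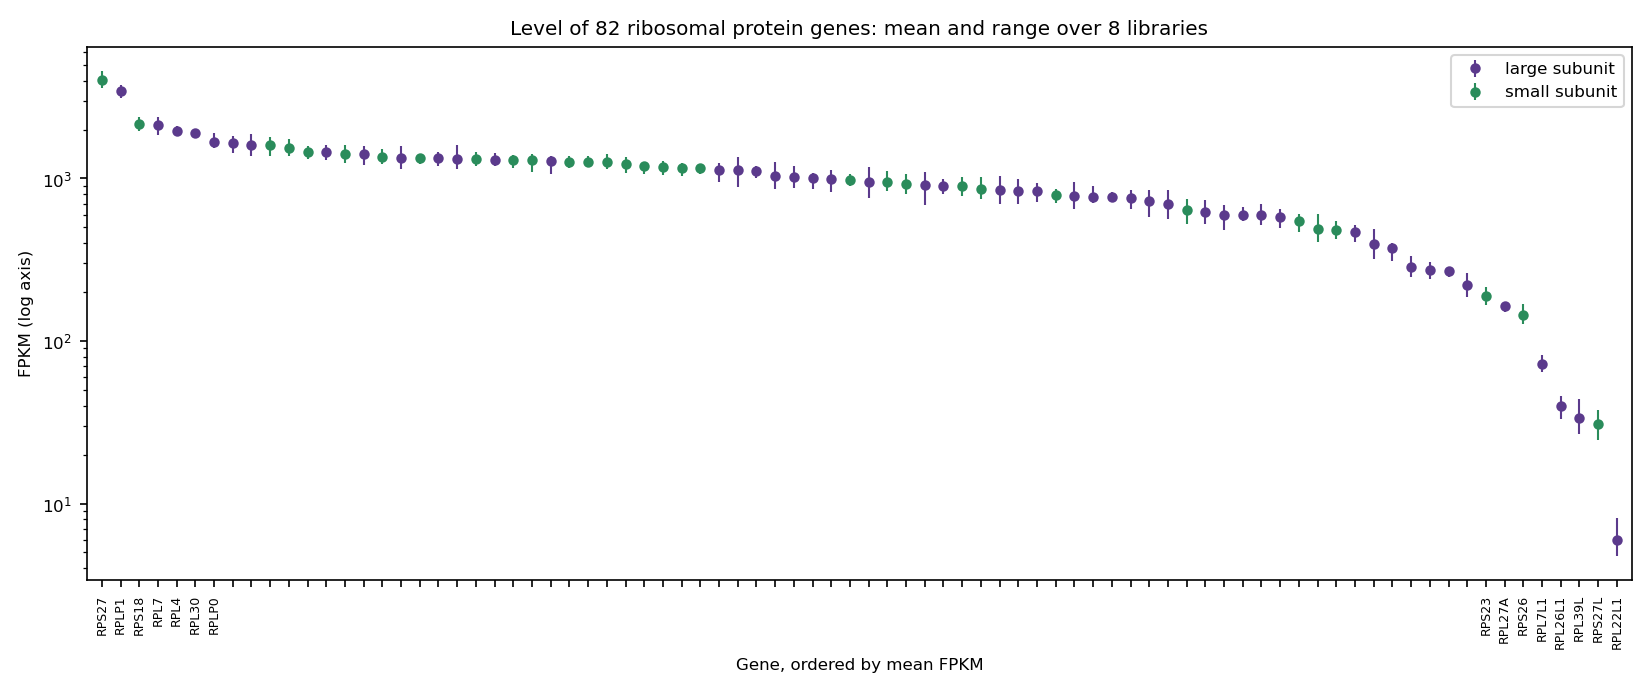
Mean FPKM (points, log axis) of the 82 members with a value above 0 in every library, in order of level, with the lowest and highest of the 8 libraries as bars and the subunit as colour; the 7 highest and 8 lowest are labelled. Levels run from 4043 FPKM for RPS27 down to 5.98 FPKM for RPL22L1, and the 5 paralogs plotted are the 5 lowest.

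The paralogs were expressed far below their partners. RPL7L1, which acts in assembly of the large subunit, had 72.1 ± 6.47 FPKM. As a share of RPL7 this was 2.78% to 3.19% in the WT and 3.67% to 4.05% in the BR libraries, and the lines did not overlap. RPL39L, known from the testis and from tumours, was at 33.7 ± 7.02 FPKM, or, as a share of RPL39, 4.32% to 6.28% in the WT and 5.21% to 8.12% in the BR libraries. RPL26L1 was at 40.0 ± 3.75 FPKM, and its share of RPL26 was 3.11% to 3.67% in the WT and 3.37% to 4.10% in the BR libraries. RPS27L, known as a p53 target gene, was at 31.0 ± 4.89 FPKM, and its share of RPS27 was 0.581% to 0.819% in the WT and 0.695% to 0.974% in the BR libraries. RPL22L1, whose expression RPL22 protein is known to repress, was at 5.98 ± 1.07 FPKM, and its share of RPL22 was 1.89% to 2.37% in the WT and 1.83% to 3.30% in the BR libraries. For these last 4 pairs the ranges of the lines overlapped. RPL3L, a gene of striated muscle, had 0 to 6 reads in a library, and RPL10L, a gene of the testis, had 0 to 2. These 2 genes did not pass the filter on counts and were not tested, and a count of 0 allows a level of up to 0.162 to 0.167 CPM (3 counts of a library's total, counting error only).

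Reads shared between near-identical genes limit some of these values. The authors' estimated counts divide a read that matches several genes, so a count that is not whole shows such sharing. Of the 84 members, 44 had whole counts (within 1e-09) in all libraries, as did 8884 of all 18564 genes (47.9%), and all 7 paralogs had divided reads. RPL17, RPS10 and RPL36A also share exons with read-through genes listed beside them. RPL17-C18orf32 had 372.1 to 486 reads in a library against a mean of 14590.5 for RPL17, RPS10-NUDT3 had 33.2 to 389 against 10499.6 for RPS10, and RPL36A-HNRNPH2 had 1533 to 2592 against 4349 for RPL36A. Values of RPL36A are therefore uncertain. In the transcript table, 1 transcript carried at least 90% of the reads in 73 members. For 35 members only 1 transcript was listed, so their share was fixed in advance. RPL28 was divided most evenly among the core members, its leading transcript holding 53.4% to 57.5% of its reads and the ranges of both lines overlapping. For RPL7L1 that share was 50.5% to 61.2%, and for RPL26L1 47.1% to 81.9%, also with overlap.

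The first comparison asked how ribosomal protein mRNAs differed between the resistant and the parental cells, over all 8 libraries. They took a smaller share of the reads in BR cells. Members held 6.70% and 6.94% in the WT vehicle libraries, 6.41% and 6.86% with SI-2, 5.97% and 6.08% in the BR vehicle libraries and 5.67% and 5.91% with SI-2. All 4 BR libraries were below all 4 WT libraries, and the means were 6.73% ± 0.233 in WT and 5.91% ± 0.176 in BR (SD, n = 4). Each library held 17997771 to 18570027 counts, so the 95% Wilson interval of a library's share reached at most 0.0117 percentage points to either side, counting error only.

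Both subunits took part. The large subunit genes held 4.27% ± 0.173 of counts in WT and 3.69% ± 0.125 in BR, and the small subunit genes 2.46% ± 0.0611 and 2.21% ± 0.0549 (SD, n = 4). The ratio of summed FPKM of the large to the small subunit was 1.28 to 1.32 in WT and 1.23 to 1.27 in BR, so the lines did not overlap but lay close. Within each of the 4 conditions replicate 2 had the higher ratio. In bulk RNA, fewer cells of a kind and less RNA per cell cannot be told apart.

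**Figure D2:**
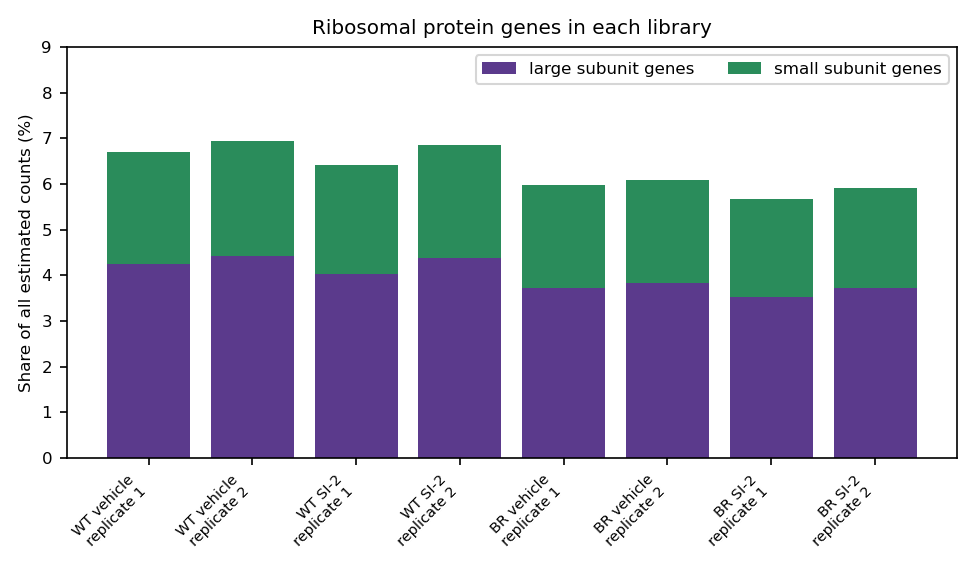
Share of all estimated counts (percent) held by large and small subunit genes in each of the 8 libraries, as stacked bars from 0. The WT bars reach 6.41% to 6.94% and the BR bars 5.67% to 6.08%.

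Gene by gene, 78 of the 82 tested members were lower in BR than in WT cells. Their median log2 fold change was -0.22, against 0.00416 for all genes tested. Values below are CPM, which are counts scaled to library size after TMM. Log2 fold changes are BR over WT with their standard error. The p-values are from edgeR's quasi-likelihood test of 4 against 4 libraries, Benjamini-Hochberg adjusted over 13520 genes. This test treats the 4 libraries of a line as independent. Replicate differences of vehicle and SI-2 libraries correlated across genes within a line (r = 0.465 in WT and 0.409 in BR). If such libraries shared a culture, these p-values overstate the replication. 1 member passed an adjusted p of 0.05, RPL7A, which was lower, where 0.362% of all genes tested passed. At an unadjusted p under 0.05, 55 members were lower, where 8.08% of all genes were, and 1 was higher, where 6.29% of all genes were. In 55 members all 4 BR libraries lay below all 4 WT libraries, which was the case for 4.36% of all genes. In 1 member, RPL7L1, all BR libraries lay above, against 3.84% of all genes.

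DESeq2 called 19 members on the same counts, all lower in BR, where it called 2.95% of all genes. Leaving out 1 library at a time, it called 3 to 32 members, all lower, and 136 to 955 of all genes. Without BR SI-2 replicate 2 it called 4 members and 176 genes in all. These counts were 3 and 141 without WT SI-2 replicate 2, and 4 and 136 without WT vehicle replicate 2. They were 8 and 356 without WT vehicle replicate 1, and 8 and 173 without BR vehicle replicate 2. Without BR SI-2 replicate 1 they were 9 and 394. Without WT SI-2 replicate 1 they were 32 and 955, and without BR vehicle replicate 1 they were 26 and 704. With limma on log2(FPKM + 1), 2 were called, RPL7A and RPL12, and 0.414% of all genes. The call of RPL7A depended on single libraries. It was lost without WT vehicle replicate 1 or 2, WT SI-2 replicate 2, BR vehicle replicate 2, or BR SI-2 replicate 1 or 2, with adjusted p from 0.0632 to 0.0979, and held without WT SI-2 replicate 1 (adjusted p = 0.0168, edgeR) or BR vehicle replicate 1 (adjusted p = 0.0193, edgeR). Its fold change moved little, from -0.58 to -0.52. BR SI-2 replicate 2 was the library with raised markers of fibroblasts and some markers of other cells. Without it the median of the members was -0.20, and 77 of 82 members were lower. Of these, 39 were lower at an unadjusted p under 0.05 in edgeR (5.89% of all genes). The 3 remaining BR libraries lay below all WT libraries in 55 members (5.45% of all genes). That last count was 71 with the vehicle libraries alone (17.5% of all genes) and 69 with the SI-2 libraries alone (14.9%), 2 against 2. Without that library the median was -0.22 for the large and -0.18 for the small subunit.

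RPL7A, a large subunit protein whose gene hosts small nucleolar RNAs in its introns, fell the most. Its level was 987 and 1033 CPM in the WT vehicle libraries, 906 and 1021 in the WT SI-2 libraries, 732 and 666 in the BR vehicle libraries and 673 and 648 in the BR SI-2 libraries. No BR library reached the lowest WT library. The log2 fold change was -0.54 ± 0.082 (adjusted p = 0.0212, edgeR), 31.1% lower.

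RPL12, which forms the base of the ribosomal stalk, had 713 and 668 CPM in the WT vehicle libraries, 646 and 668 in the WT SI-2 libraries, 510.2 and 469.6 in the BR vehicle libraries and 516 and 413 in the BR SI-2 libraries. Its lines did not overlap, and the log2 fold change was -0.50 ± 0.093 (adjusted p = 0.061, edgeR). Reads of RPL12 and RPL17 were in part divided with other genes. RPL17, near the exit of the peptide tunnel, had 877 and 963 CPM in the WT vehicle libraries, 851 and 976 in the WT SI-2 libraries, 711 and 709.6 in the BR vehicle libraries and 643 and 688 in the BR SI-2 libraries. The log2 fold change of RPL17 was -0.41 ± 0.083 (adjusted p = 0.069, edgeR), and its lines did not overlap.

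RPL29 had 787 and 819 CPM in the WT vehicle libraries, 695 and 853 in the WT SI-2 libraries, 621 and 600.2 in the BR vehicle libraries and 588 and 572 in the BR SI-2 libraries, which is -0.41 ± 0.088 as a log2 fold change (adjusted p = 0.0895, edgeR). RPL35, which lies at the tunnel exit where nascent chains meet chaperones, had 334 and 353 CPM in the WT vehicle libraries, 299 and 370.3 in the WT SI-2 libraries, 254 and 279.7 in the BR vehicle libraries and 245 and 259 in the BR SI-2 libraries, which is -0.39 ± 0.094 on that scale (adjusted p = 0.128, edgeR). For both genes every BR library was below every WT library. RPL27 had 423 and 485 CPM in the WT vehicle libraries, 398 and 488 in the WT SI-2 libraries, 392 and 340 in the BR vehicle libraries and 334 and 319 in the BR SI-2 libraries, or -0.37 ± 0.10 on that scale (adjusted p = 0.168, edgeR). Its highest BR value, 392, was just under its lowest WT value, 398. These 6 members with the lowest fold changes all belong to the large subunit.

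**Figure D3:**
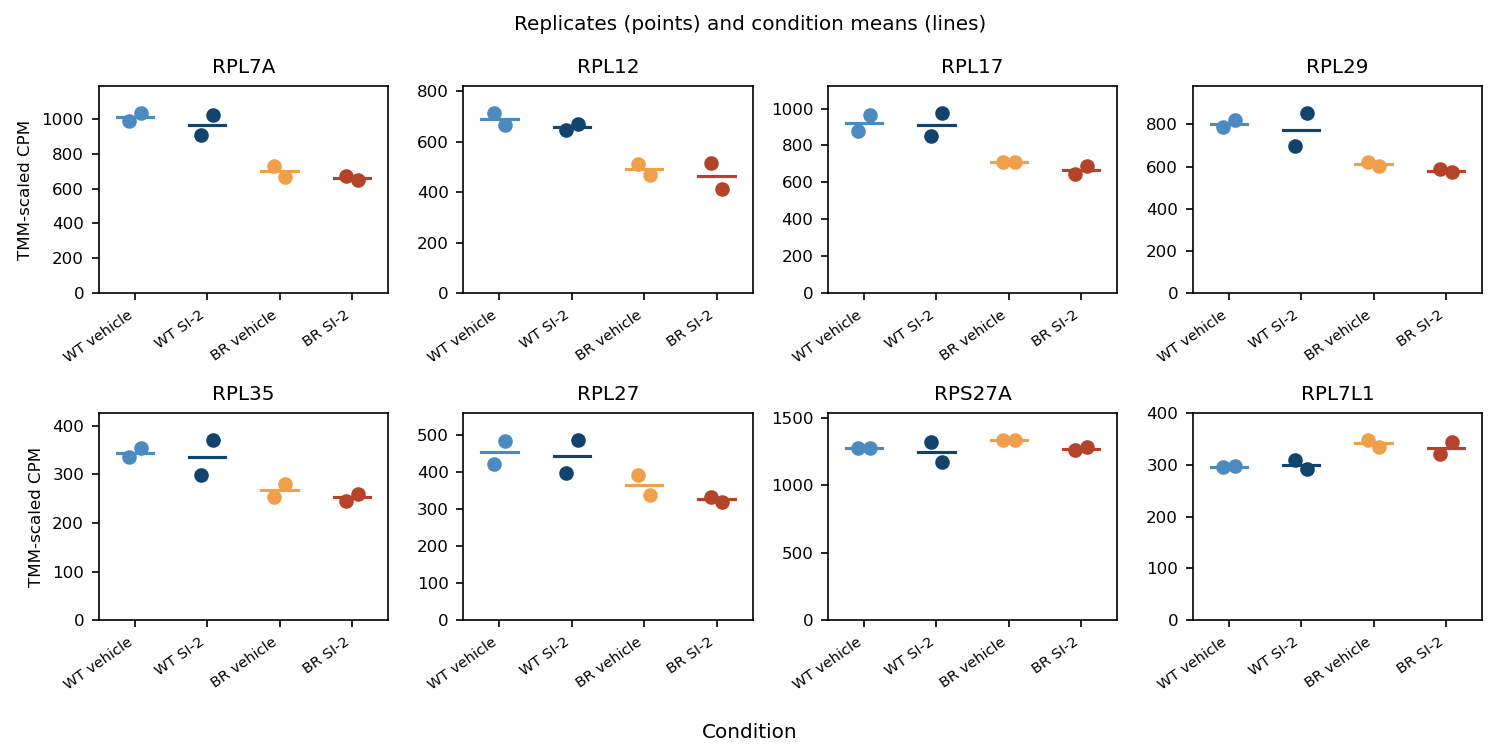
TMM-scaled CPM of 8 members in the 4 conditions, with a point for each library and a line at the mean of 2, on axes from 0. RPL7A, RPL12, RPL17, RPL29, RPL35 and RPL27 were lower in all BR than in all WT libraries, RPS27A overlapped, and RPL7L1 was higher in all BR libraries.

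At the other end stood 4 paralogs and 2 core genes of the small subunit. RPL7L1 had 296 and 297 CPM in the WT vehicle libraries, 309 and 292 in the WT SI-2 libraries, 348 and 335 in the BR vehicle libraries and 322 and 345 in the BR SI-2 libraries, so that every BR library exceeded every WT library, and the log2 fold change was 0.18 ± 0.077 (adjusted p = 0.332, edgeR). RPL39L had 22.3 and 20.8 CPM in the WT vehicle libraries, 28.0 and 21.5 in the WT SI-2 libraries, 20.1 and 31.2 in the BR vehicle libraries and 22.9 and 29.9 in the BR SI-2 libraries, with overlapping lines and a log2 fold change of 0.17 ± 0.16. For RPS27A, the ubiquitin fusion, the levels were 1279 and 1275 CPM in the WT vehicle libraries, 1318 and 1171 in the WT SI-2 libraries, 1336 and 1335 in the BR vehicle libraries and 1259 and 1282 in the BR SI-2 libraries. Its log2 fold change was 0.047 ± 0.076, and its lines overlapped.

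RPS2, a protein at the mRNA entry of the small subunit, had 1232 and 1273 CPM in the WT vehicle libraries, 1000 and 1243 in the WT SI-2 libraries, 1332 and 1120 in the BR vehicle libraries and 1253 and 1073 in the BR SI-2 libraries, with a log2 fold change of 0.00923 ± 0.11 whose sign differed between scalings. RPL22L1 (-0.037 ± 0.18) and RPS27L (-0.038 ± 0.14) were within their errors of 0, and RPL26L1 was at -0.15 ± 0.11. Their partners were lower by more in RPS27 (-0.22) and RPL26 (-0.23), and RPL22 (-0.058 ± 0.076) was the core large subunit gene nearest 0.

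The stalk proteins RPLP0 (-0.22), RPLP1 (-0.17) and RPLP2 (-0.19) had log2 fold changes close to one another, and in each of them the lines did not overlap. For the 5S RNA partners these were -0.29 in RPL5 and -0.20 in RPL11, also without overlap. RPL10 was at -0.30 ± 0.094, again without overlap. RPS14 (-0.18) had no overlap, while RPS19 (-0.14), RPS6 (-0.15) and RPSA (-0.13) had some. By subunit, the median was -0.23 for 50 tested large subunit members and -0.22 for 32 small subunit members. All BR libraries lay below all WT libraries in 38 (76%) of the large and 17 (53.1%) of the small subunit members. Over all genes tested this held for 4.36%. The 44 members with whole counts had a median of -0.22 and the 38 tested members with divided counts one of -0.22.

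**Figure D4:**
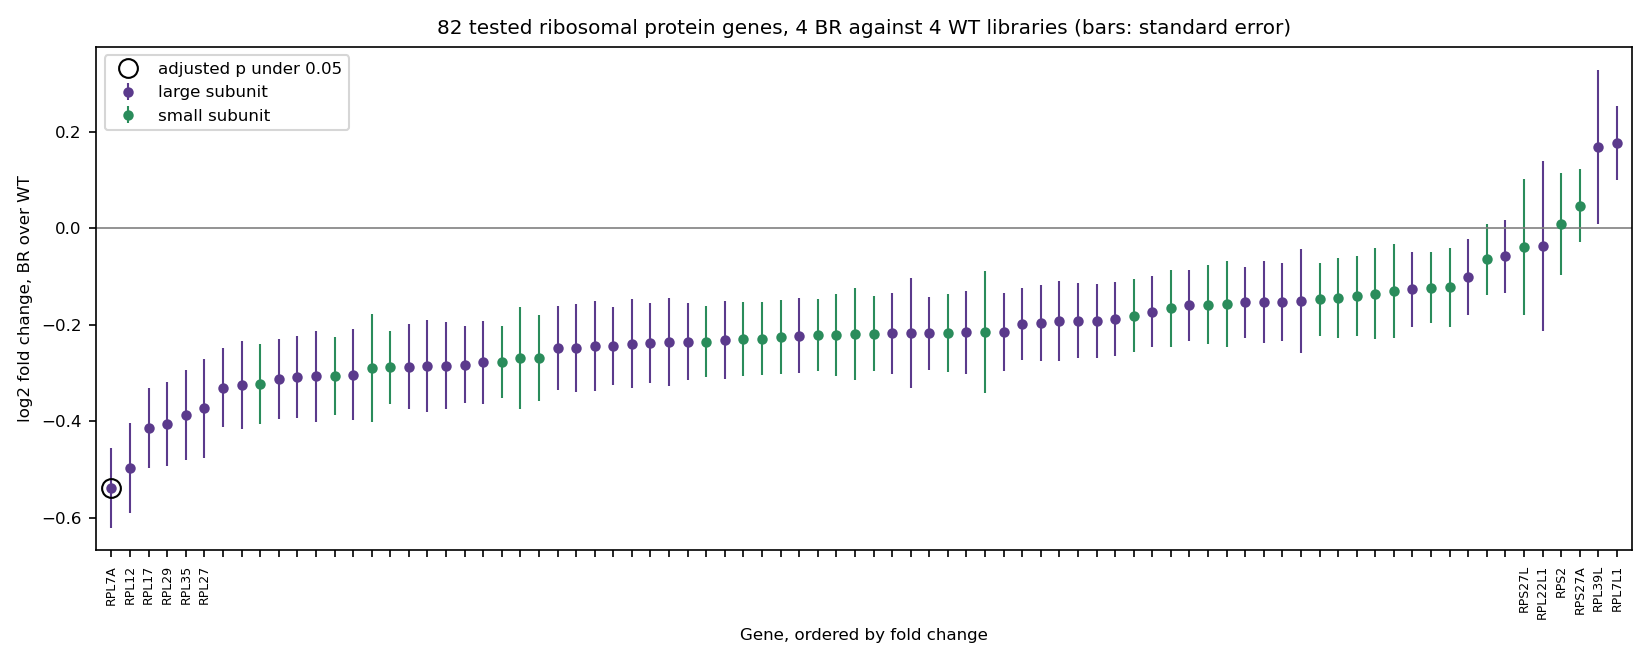
Log2 fold change, BR over WT, of the 82 tested members in order, with standard errors as bars, subunits as colours and a ring on the member with an adjusted p under 0.05; the 6 lowest and 6 highest are labelled. The values run from -0.54 for RPL7A to 0.18 for RPL7L1, and 78 lie below 0.

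The members varied little between replicates. The median SD within a condition was 0.077 on the log2 scale, against 0.22 for all genes tested and 0.20 for 582 other genes with a mean log2 CPM over 8. The difference between lines was set beside short genes and, separately, beside abundant genes, with no set alike in both length and level. Among 620 other tested genes with an effective length under 1000 bases the median log2 fold change was 0.00953, with 3.71% lower in all BR libraries. Among 590 other genes with a log2 CPM over 8 it was -0.00727, with 5.42%. For the members that share was 67.1%. Such a share also depends on the spread within a condition, which was smaller in the members than in the abundant genes.

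The members were then divided by the start motif. The median log2 fold change was -0.22 for the 47 with it, of which 34 were lower in all BR libraries, and -0.20 for 19 tested members without it, of which 12 were. Of 755 other tested genes with the motif, 6.49% were lower in all BR libraries and the median was -0.063. Of 10094 other genes without it, 3.73% were, with a median of 0.012. Without BR SI-2 replicate 2 the medians of the members were -0.21 with the motif and -0.19 without it. These are descriptions of annotated starts, with no test.

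Genes that work beside the ribosomal proteins were read from lists. Among ribosomal components outside the symbol rule, RACK1, a scaffold on the small subunit, was at -0.32 ± 0.091 and FAU, the RPS30 fusion, at -0.20 ± 0.089. RPL36AL, a near-copy of RPL36A, was at 0.23 ± 0.18, where RPL36A was at -0.24 ± 0.082. None of these passed the adjusted test.

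Of 17 elongation factors and other genes known for TOP mRNAs, 17 were lower in BR and 0 passed the adjusted test, with a median of -0.29. At an unadjusted p under 0.05 in edgeR 13 were lower, where 8.08% of all genes were. In 4 of the 17 all BR libraries lay below all WT libraries (23.5%), against 55 of 82 members (67.1%) and 4.36% of all genes. Of these 17, EEF2, which moves the ribosome along the mRNA, was at -0.52 ± 0.14, and EEF1A1, which delivers aminoacyl-tRNA, at -0.32 ± 0.082. Of 48 ribosome assembly factors 40 were higher in BR, with a median of 0.13. Of these, 10 were higher at an unadjusted p under 0.05 in edgeR, where 6.29% of all genes were, and 0 after adjustment. For 19 tested genes of RNA polymerase I and its factors the median was 0.16, with 15 higher, for 20 other initiation factors 0.061, with 12 higher, and for 78 mitochondrial ribosomal proteins 0.080, with 51 higher, and 0 passed after adjustment in each list. All of these lists were read against a median of 0.00416 over all genes. Without BR SI-2 replicate 2 the medians were -0.26 for the elongation factors and other TOP genes, with 16 of 17 lower, 0.15 for the assembly factors, 0.15 for RNA polymerase I, 0.10 for the initiation factors and 0.072 for the mitochondrial ribosomal proteins.

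Of 12 genes of the p53 checkpoint, 11 were lower in BR, with a median of -0.28. At an unadjusted p under 0.05 in edgeR, 6 were lower and 1 was higher, where 8.08% of all genes were lower and 6.29% higher. The lists are not separate: NPM1 is also among the TOP genes above, and SESN2 is also in the amino acid response. CDKN1A, the cell cycle inhibitor p21, fell by 1.10 ± 0.12 on the log2 scale (adjusted p = 0.00239, edgeR) and was the gene of this list that passed. Of 17 tested genes of the amino acid response all were lower, with a median of -0.51. Of these, 9 were lower at an unadjusted p under 0.05 in edgeR (8.08% of all genes) and 0 after adjustment. In none of the 17 were the lines without overlap, where 4.36% of all genes were lower in all BR libraries. The summed level of this list was 1800.1 to 3144 FPKM in WT and 1376 to 2473 FPKM in BR. Without BR SI-2 replicate 2, CDKN1A was at -1.09 ± 0.14 (adjusted p = 0.0118, edgeR). Of 18 then tested genes of the amino acid response 17 were lower, with a median of -0.45. Of these, 6 were lower at an unadjusted p under 0.05 in edgeR, where 5.89% of all genes were.

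**Figure D5:**
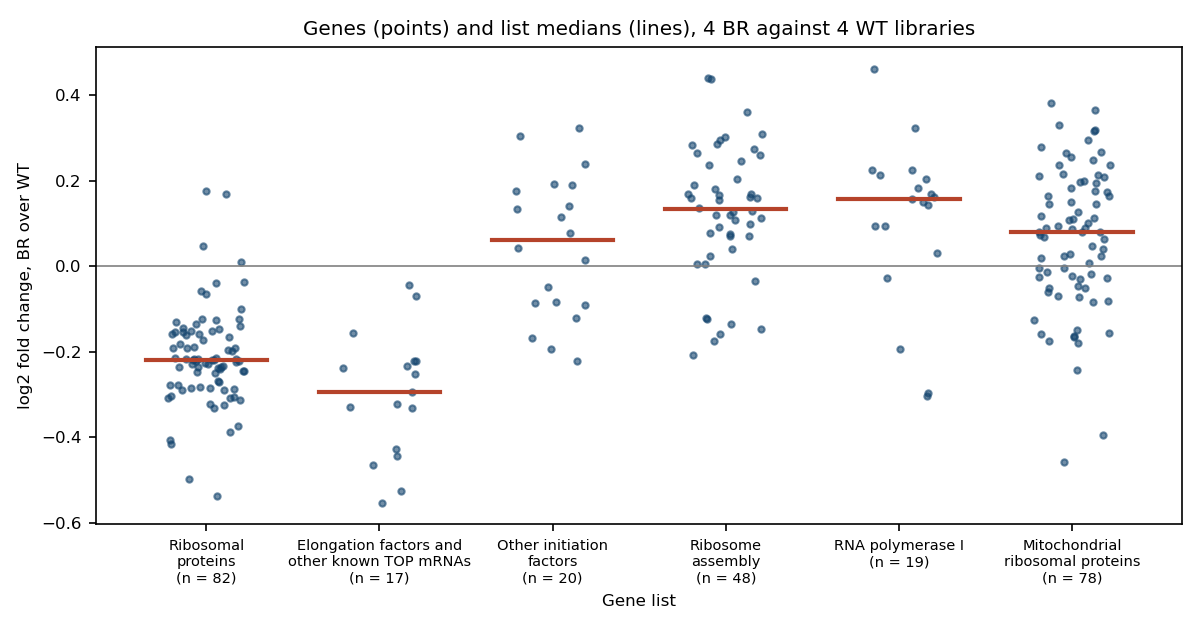
Log2 fold change, BR over WT, of each tested gene (points, spread sideways for sight) in 6 lists, with the list median as a line. The medians of the ribosomal proteins (-0.22) and of the elongation factors and other TOP genes (-0.29) lie below 0, and those of the other 4 lists lie between 0.061 and 0.16.

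In vehicle-treated cells alone, 2 BR against 2 WT libraries in a fit over the 4 conditions, 79 of 82 members were lower in BR, with a median log2 fold change of -0.22. No member passed the adjusted test of edgeR, where 0% of 13896 genes did, and DESeq2 called 0 members. At an unadjusted p under 0.05, 9 members were lower and 0 higher, against 2.36% of all genes lower. In 71 members both BR libraries lay below both WT libraries (17.6% of all genes), and in 2, RPS27A and RPL7L1, above them (15.6%). The lowest were RPL7A at -0.53 ± 0.14, RPL12 at -0.49 ± 0.15 and RPL29 at -0.39 ± 0.15. The highest were RPL39L at 0.25 ± 0.25, RPL7L1 at 0.21 ± 0.14 and RPS27A at 0.066 ± 0.13. This comparison uses libraries of the preceding one and is not independent of it.

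The next comparisons asked what SI-2 did to these mRNAs in each line, 2 libraries against 2. In BR cells 76 of 82 members were lower with SI-2 (median log2 fold change -0.076), and in WT cells 72 were lower, with a median of -0.060. No member passed the adjusted test of edgeR in either line, and neither did any of the 13896 genes (0% in BR, 0% in WT). At an unadjusted p under 0.05 there were 0 members in either line, where 0.317% of all genes were lower in BR and 0.266% in WT. DESeq2 called 0 members in BR and 0 in WT. For 590 other genes with a log2 CPM over 8 the median was -0.063 in BR and -0.036 in WT.

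In BR cells both SI-2 libraries were below both vehicle libraries in 36 members (43.9%), where 11.2% of all genes and 14.4% of the 590 abundant genes were, and above them in 1, RPL22L1 (10.7% of all genes). In WT cells this held for 26 members (31.7%), against 12.3% of all genes and 13.4% of the abundant genes, and 0 were above (10.9% of all genes). Without the BR SI-2 replicate 2 library, the median in BR was -0.067, and 65 of 82 members were lower.

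The member with the lowest fold change in BR cells was RPS29, a small zinc-binding protein of the small subunit. RPS29 had 176 and 139 CPM with vehicle and 132 and 132 CPM with SI-2, a log2 fold change of -0.25 ± 0.17. Without vehicle replicate 1 it was -0.084. In WT cells RPS29 had 171 and 197 CPM with vehicle and 158 and 147 CPM with SI-2, a log2 fold change of -0.27 ± 0.17.

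RPL38, a large subunit protein known for its role in translation of Hox mRNAs, had 143 and 138 CPM with vehicle and 116 and 125 CPM with SI-2 in BR cells (-0.22 ± 0.14). In WT cells RPL38 had 159 and 177 CPM with vehicle and 136 and 136 CPM with SI-2 (-0.31 ± 0.14). In both lines the treated libraries lay below the vehicle libraries. RPS23, a protein of the decoding centre, had 646 and 655 CPM with vehicle and 591 and 523 CPM with SI-2 in BR cells (-0.22 ± 0.14). RPL27 (-0.17 ± 0.16), RPL3 (-0.17 ± 0.13), which reaches to the peptidyl transferase centre, and RPS20 (-0.16 ± 0.13) completed the 6 lowest in BR cells, and RPS2 (-0.16 ± 0.16) was the third lowest in WT cells. Leaving out 1 library, RPS23 in BR cells lay between -0.32 without SI-2 replicate 1 and -0.14 without SI-2 replicate 2. RPL27 lay between -0.27 without vehicle replicate 2 and -0.073 without vehicle replicate 1.

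RPL22L1 was the highest in BR cells, with 9.55 and 10.2 CPM with vehicle and 16.2 and 10.3 CPM with SI-2 and a log2 fold change of 0.42 ± 0.25. It rested on SI-2 replicate 1, without which it was 0.050. In WT cells RPL22L1 had 10.3 and 12.7 CPM with vehicle and 12.9 and 11.5 CPM with SI-2 (0.082 ± 0.25), and the treatments overlapped. RPL39L was at 0.041 ± 0.25 in BR and 0.20 ± 0.25 in WT. RPS28, RPL28, RPS15A and RPS15 in BR and RPSA in WT had log2 fold changes of at most 0.021, within their errors of 0 and reversed in sign by some of the other settings.

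The difference between the lines in their response to SI-2 was tested as an interaction. The median over members was -0.020, with 54 lower and 28 higher. No member passed the adjusted test, where 0% of 13896 genes did, none had an unadjusted p under 0.05 in edgeR, and DESeq2 called 0. At the ends were RPL39L (-0.16 ± 0.35), RPS23 (-0.16 ± 0.20) and RPS3 (-0.15 ± 0.21) on the low side and RPL22L1 (0.34 ± 0.35), RPS27L (0.15 ± 0.32) and RPLP2 (0.14 ± 0.19) on the high side, each less than its standard error from 0. With 2 libraries a condition no difference in response was detected, and the size of difference that could have been detected was not computed.

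Over both lines, 4 SI-2 against 4 vehicle libraries, 76 of 82 members were lower with SI-2 and the median log2 fold change was -0.071. No member passed the adjusted test of edgeR (0% of 13520 genes did) and DESeq2 called 0 members. RPL38 alone had an unadjusted p under 0.05, and its difference on the log2 scale was -0.27 ± 0.11 (adjusted p = 0.999, edgeR). It was also the 1 member whose SI-2 libraries all lay below the vehicle libraries, where 0.754% of all genes did. In 0 members did they all lie above, where 0.688% of all genes did. RPS29 was at -0.26 ± 0.12 and RPL24, near the subunit interface, at -0.15 ± 0.13. At the high end were RPL22L1 (0.25 ± 0.17), RPL39L (0.12 ± 0.17) and RPS28 (0.00676 ± 0.10). This fit had no term for the line. With one, the median was -0.072, with 76 members lower, 2 of them at an unadjusted p under 0.05, and leaving out 1 library it ranged from -0.093 without WT SI-2 replicate 2 to -0.053 without WT SI-2 replicate 1. Without the term, leaving out a library also unbalances the lines: the median was then -0.030, with 56 of 82 members lower, without BR SI-2 replicate 2 and -0.13 without WT SI-2 replicate 2.

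Among the companion lists, ribosome assembly factors had medians of -0.11 in BR and -0.12 in WT cells with SI-2, with 38 and 40 of 48 lower, and the 17 elongation factors and other TOP genes -0.12 and -0.10, with 17 lower in each. The 78 mitochondrial ribosomal proteins had medians of -0.049 and 0.00682. In each of these lists 0 genes passed the adjusted test.

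The 4 libraries numbered 2 were also set against the 4 numbered 1, in a fit with no term for line or treatment. Here 0.925% of 13520 genes passed the adjusted test of edgeR, 0 of them members, with 0 members at an unadjusted p under 0.05 and 0 called by DESeq2. The median of the members was 0.024, with 50 higher and 32 lower. It was 0.043 for the large and -0.00902 for the small subunit. The extremes were RPL35 (0.16 ± 0.14), RPL39L (0.15 ± 0.16) and RPL26L1 (0.15 ± 0.11) above and RPL22L1 (-0.13 ± 0.17) and RPL12 (-0.10 ± 0.18) below. With terms for the 4 conditions, 0 members and 0 of all genes passed the adjusted test of edgeR, with 0 members lower at an unadjusted p under 0.05, and the median was 0.016, with 36 of 82 lower. The shift of the members from replicate 1 to replicate 2 was upward in WT (0.050 with vehicle and 0.10 with SI-2, as differences of their median log2 deviation) and downward in BR (-0.044 and -0.026), so that the shifts of the lines partly cancel in a median over both.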

How the data were processed

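RNA was extracted with Trizol and sequenced by BGI (BGISEQ-500). The authors removed low-quality reads and deposited estimated counts and FPKM per gene and per transcript; the submitters' processing notes name hg19, BWA, Bowtie2 and RSEM. FPKM deposited by the authors scale counts by length and library size. The authors' tables of fold changes and q-values between conditions were not used.

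Estimated counts were rounded, filtered by filterByExpr (13520 genes for 4 against 4 libraries, 13896 for 4 conditions), scaled by TMM (factors 0.971 to 1.06) and tested with edgeR 4.0.16 in R 4.3.3 (quasi-likelihood, legacy form, Benjamini-Hochberg over all genes). Standard errors came from the fold change and its F statistic. DESeq2 1.42.0, limma 3.58.1 and other scalings and filters were alternatives. Scripts were tested on simulated data. Members and lists were chosen with earlier results of these data known. Named were the 6 highest and 6 lowest members (BR against WT over all libraries, SI-2 in BR) or 3 and 3 (other comparisons) with a mean count of at least 50, every called member, the 10 highest and lowest by FPKM, the paralogs and their partners, and RPL5, RPL10, RPL11, RPLP0, RPS6, RPS14, RPS19, RPS27A and RPSA; some of the genes this rule names are not reported here. Replicate libraries differed beyond sampling noise (chi-square per degree of freedom 26.8 to 40.1). Promoter sequences are RefSeq's.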

Additional observations from a re-analysis of the deposited data

Results flagged for a closer look

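In groups of 4 libraries of a line, 62 groups were looked at (27 named members and 4 summed levels, in each line) for a library far from the other 3, and 3 were found. By chance about 1 in 20 groups would be. RPL22L1 in BR cells was 16.2 CPM in SI-2 replicate 1, against 9.54 to 10.3 in the other BR libraries. RPS2 in WT cells was 1000 CPM in SI-2 replicate 1, against 1232 to 1273 in the other WT libraries. RPS29 in BR cells was 176 CPM in vehicle replicate 1, against 132 to 139 in the other BR libraries. Each of them touches a fold change given in the text above, whose value without that library is 0.050 for RPL22L1 with SI-2 in BR, -0.012 for RPS2 with SI-2 in WT and -0.084 for RPS29 with SI-2 in BR.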

How the results depend on the processing

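The count of members called in BR against WT moved most: 1 in the main test, 2 with upper-quartile scaling, library size alone, or limma on log2(FPKM + 1) or log2(FPKM + 0.1), 19 with DESeq2, and 0 to 3 leaving out 1 library. Over all genes the main test called 49 and DESeq2 399. The median of the members stayed between -0.25 and -0.18. In the other comparisons 0 members were called under every alternative run. Leaving out 1 library, the median ranged from -0.072 to 0.00480 in the interaction, from -0.13 to -0.030 for SI-2 over both lines and from -0.021 to 0.079 between replicates, where upper-quartile scaling gave 0.080. The members' share was 19.7% in WT and 17.6% in BR of summed FPKM, and 4.02% and 3.54% of counts for members with whole counts.

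Replicate numbers are shared across conditions, but no label ties a number to a culture or day. Replicate differences correlated across genes with r = 0.465 between the WT conditions and r = 0.409 between the BR conditions. For conditions of different lines r ran from -0.155 to 0.202, and 1 of the 6 pairs of conditions was negative. The main tests did not pair libraries by number, and a pairing of vehicle with SI-2 libraries within a line was not tested. With the replicate number as a block, 4 members (RPL7A, RPL12, RPL17 and RPL35) were called in BR against WT and 155 genes in all, and 0 members in the other comparisons. The counts of members with lines that do not overlap without 1 library, in vehicle or SI-2 libraries alone, and by library size (56), the values with a term for the line or for the conditions added to the comparisons of SI-2 over both lines (leaving out 1 library) and of replicates, the lists without BR SI-2 replicate 2 and the DESeq2 counts without 1 library were chosen after seeing the data. In each of the 4 pairs of vehicle and SI-2 libraries with the same line and number, the members' share was lower with SI-2, which is a description with no test.

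Of 54 named fold changes, each of the following changed sign when 1 library was left out, with this range: for BR against WT RPS27L (-0.13 to 0.038), RPL22L1 (-0.24 to 0.042), RPS2 (-0.064 to 0.058), for BR against WT with vehicle RPL39L (-0.10 to 0.55), for SI-2 in BR RPS15 (-0.038 to 0.025), RPS15A (-0.055 to 0.044), RPL28 (-0.071 to 0.10), RPS28 (-0.065 to 0.095), RPL39L (-0.25 to 0.39), for SI-2 in WT RPSA (-0.065 to 0.10), RPL22L1 (-0.059 to 0.24), RPL39L (-0.00284 to 0.38), for the interaction RPL39L (-0.45 to 0.19), RPS27L (-0.11 to 0.39), RPL22L1 (-0.032 to 0.63), for SI-2 over both lines RPS28 (-0.049 to 0.053) and for replicate 2 against 1 RPL22L1 (-0.22 to 0.034), RPL12 (-0.20 to 0.012).

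Upper-quartile scaling turned RPS2 to -0.012 (BR against WT) and RPS15 to -0.00532 (SI-2 in BR) and RPS15A to -0.00458 (SI-2 in BR) and RPS28 to -0.00337 (SI-2 over both lines). Testing without a filter turned RPS15 to -0.013 (SI-2 in BR) and RPS15A to -0.011 (SI-2 in BR). DESeq2 turned RPS15 to -0.00375 (SI-2 in BR) and RPS15A to -0.00253 (SI-2 in BR). A fit of only the 4 libraries compared turned RPS15 to -0.00320 (SI-2 in BR) and RPS15A to -0.00261 (SI-2 in BR). The cause was not tested. With a term for the line, RPS28 (SI-2 over both lines) turned to -0.016 without WT vehicle replicate 2, -0.025 without WT SI-2 replicate 2, -0.00522 without BR vehicle replicate 2, -0.026 without BR SI-2 replicate 1. With 2 libraries a condition, edgeR called no member for SI-2, with or without the replicate block. That block was a term shared by both lines, while the members' shift between replicates was upward in WT and downward in BR. It therefore cannot check a pairing of libraries within a line.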
